A study of Mus musculus with 10 samples.

Results

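Livers take up circulating fatty acids across the hepatocyte membrane and move them through the cytosol on small binding proteins. This report describes 10 mouse genes of that route, Cd36, Fabp1, Fabp2, Fabp4, Slc27a2, Slc27a4, Slc27a5, Vldlr, Lpl and Lipc, among 18869 gene identifiers measured in liver. The genes are a list of names, set with no threshold on a measured value but with earlier results of these data known. All 10 were matched through their mouse Ensembl identifiers. The samples were 10 liver libraries of C57BL/6 mice aged 6 weeks, 5 of wild-type (WT) animals and 5 of animals called Nrf2Act-hep, described as having NRF2 activated in the liver. All mice ate a chow diet and were fasted for 15 h, so no fed group was available here. The labels do not name the allele, promoter or Cre line behind the activation, and do not say whether each library is a separate animal. P-values therefore measure the spread between libraries, which may be partly technical. Sample titles end in M or F. The letter M stands on replicates 1 and 2 (WT) and 6 to 8 (Nrf2Act-hep), and F on replicates 3 to 5 (WT) and 9 and 10 (Nrf2Act-hep). NRF2, the product of Nfe2l2, activates genes that defend cells against oxidants and foreign compounds, and the series asked what its activation does in an enlarging liver.

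As background, CD36 is a membrane glycoprotein that binds long-chain fatty acids, and the SLC27 proteins (also called FATPs) import fatty acids and join them to coenzyme A. Fatty acid-binding proteins (FABPs) carry the acids inside the cell. FABP1 is the abundant form of liver, FABP2 the form of intestine, and FABP4 that of adipocytes, macrophages and some endothelial cells. Lipoprotein lipase (LPL) and hepatic lipase (LIPC) release fatty acids from lipoprotein triglycerides, and the VLDL receptor (VLDLR) binds triglyceride-rich lipoproteins. In fasting, adipose tissue releases fatty acids, and the nuclear receptor PPARA drives many hepatic genes of fatty acid use, Fabp1 and Cd36 among them.

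RefSeq promoter windows of GRCm38.p6, reaching from 250 bases before to 50 bases after a gene's start, were matched for 7 members. The windows of Cd36, Fabp1 and Lipc are shown because these 3 genes passed the genotype test described below. Capitals mark matches, on either strand, to TGACNNNGC (the core of the site bound by NRF2), AGGNCANAGGNCA (a direct repeat, 2 copies of AGGNCA with 1 base between, of the kind bound by PPARA with RXR) or TATAAA (the TATA box). For Cd36 the window is chr5:17835847-17836146 on the minus strand, and its RefSeq start lies 52905 bases inside the GENCODE gene, which has starts further upstream. For Fabp1 the window is chr6:71199629-71199928 on the plus strand. For Lipc it is chr9:70952172-70952471 on the minus strand, at the upstream of 2 RefSeq starts.
Cd36: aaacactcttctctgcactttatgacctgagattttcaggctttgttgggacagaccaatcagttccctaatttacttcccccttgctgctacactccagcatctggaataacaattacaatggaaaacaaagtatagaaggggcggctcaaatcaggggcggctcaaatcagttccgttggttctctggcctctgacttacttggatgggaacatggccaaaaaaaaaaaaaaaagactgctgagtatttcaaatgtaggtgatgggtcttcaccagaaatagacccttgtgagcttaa
Fabp1: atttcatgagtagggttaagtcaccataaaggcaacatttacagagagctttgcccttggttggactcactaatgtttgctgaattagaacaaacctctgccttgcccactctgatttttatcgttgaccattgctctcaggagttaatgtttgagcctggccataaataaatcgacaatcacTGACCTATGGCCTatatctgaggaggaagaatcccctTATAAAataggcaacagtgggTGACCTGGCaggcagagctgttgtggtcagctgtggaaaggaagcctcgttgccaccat
Lipc: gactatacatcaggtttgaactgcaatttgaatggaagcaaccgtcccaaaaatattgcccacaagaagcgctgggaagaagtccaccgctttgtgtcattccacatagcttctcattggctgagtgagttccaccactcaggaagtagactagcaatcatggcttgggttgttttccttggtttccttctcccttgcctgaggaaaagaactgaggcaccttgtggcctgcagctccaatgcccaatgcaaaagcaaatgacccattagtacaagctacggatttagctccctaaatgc

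In the Fabp1 window all 3 motifs had a match. Counting the RefSeq start as base 0, the direct repeat lay at -67 to -55 on the minus strand, the TATA box at -30 to -25, and the NRF2 core at -9 to -1. No 2 of these matches overlapped. Cd36, Lipc and the windows of the other 4 matched members held none of the motifs in these 300 bases. Among all 32851 windows of the table, 12.4% held the NRF2 core, 0.381% the direct repeat and 13.6% the TATA box. A match in letters does not show binding, and windows without one say nothing of sites elsewhere.

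RNA was read as QuantSeq FWD tags, short reads from the 3′ end of poly(A) transcripts, so a transcript gives about 1 tag whatever its length. Levels of different genes are set side by side on that basis, and how fully each gene's tags were counted was not tested. Values below are CPM (reads scaled to a common total of 1000000 per library) after TMM scaling, given as mean ± SD over 5 libraries. A log2 fold change is the fitted difference of log2(CPM + 1), given with its SE. Depth was 1267745 to 2287727 reads in WT and 2167528 to 2806670 in Nrf2Act-hep. No pair of libraries of a genotype agreed within sampling noise (lowest chi-square per degree of freedom 4.28). Xist was at 0 in all M libraries and averaged 434 CPM in F, and the Y-linked Ddx3y averaged 111 CPM in M and 0.082 CPM in F. By these genes M libraries were male and F libraries female, so the letter comparison is one of sex. Nfe2l2 averaged 59.8 CPM in WT libraries and 40.8 CPM in Nrf2Act-hep libraries. Its log2 fold change of -0.47 ± 0.13 passed as a fall (limma, adjusted p = 0.044). That does not check the genotype, because the labels do not say whether an altered allele would be tagged. In Nrf2Act-hep 11 of the 13 NRF2 target genes past the filter on low values (15 listed) rose and 0 fell by limma (median log2 fold change 1.85). Over all genes tested 2.79% rose. The list was chosen with earlier results of these data known, so it is not an independent check of the genotype. All 10 members passed the filter on low values, 9 of them in every library and Vldlr in 9 of 10.

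In WT liver Fabp1 led the members at 1998 ± 469 CPM, followed by Slc27a2 at 766 ± 99.0, Slc27a5 at 247 ± 58.2, Fabp2 at 105 ± 24.5 and Cd36 at 96.8 ± 18.3 CPM. Lipc (59.6 ± 6.50 CPM) and Lpl (58.6 ± 15.7 CPM) came next, and Fabp4, Slc27a4 and Vldlr stood lowest at 14.4 ± 3.67, 12.9 ± 2.90 and 10.2 ± 1.46 CPM. The WT libraries overlapped between the neighbours Fabp2 and Cd36, Lipc and Lpl, Fabp4 and Slc27a4, and Slc27a4 and Vldlr, and stood apart for the other neighbours in that order. In Nrf2Act-hep Cd36 moved from place 5 to place 3, where its libraries overlapped those of Slc27a5. Lpl and Lipc exchanged places with overlapping libraries, and the order of the others stayed.

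By limma 3 of the 10 members passed the genotype test, of which Cd36 and Lipc held in most alternatives and Fabp1 did not. Cd36 rose about 3-fold, Fabp1 fell to 0.54 of its WT level in a call that stood at the threshold, and Lipc fell to 0.62. The other 7 did not pass. Over all 8075 genes tested with limma 4.64% passed, 2.79% with a rise and 1.86% with a fall, against 1 and 2 of these 10 members. The members were chosen with earlier results of these data known, so an excess over such shares was not tested. For 2 members, 1 in each direction (Cd36 and Lipc), the libraries of the groups did not overlap, as was so for 5.14% of all genes (3.05% with a rise and 2.09% with a fall). The median log2 fold change of the members was -0.25, against 0.0051 over all genes.

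**Figure D1:**
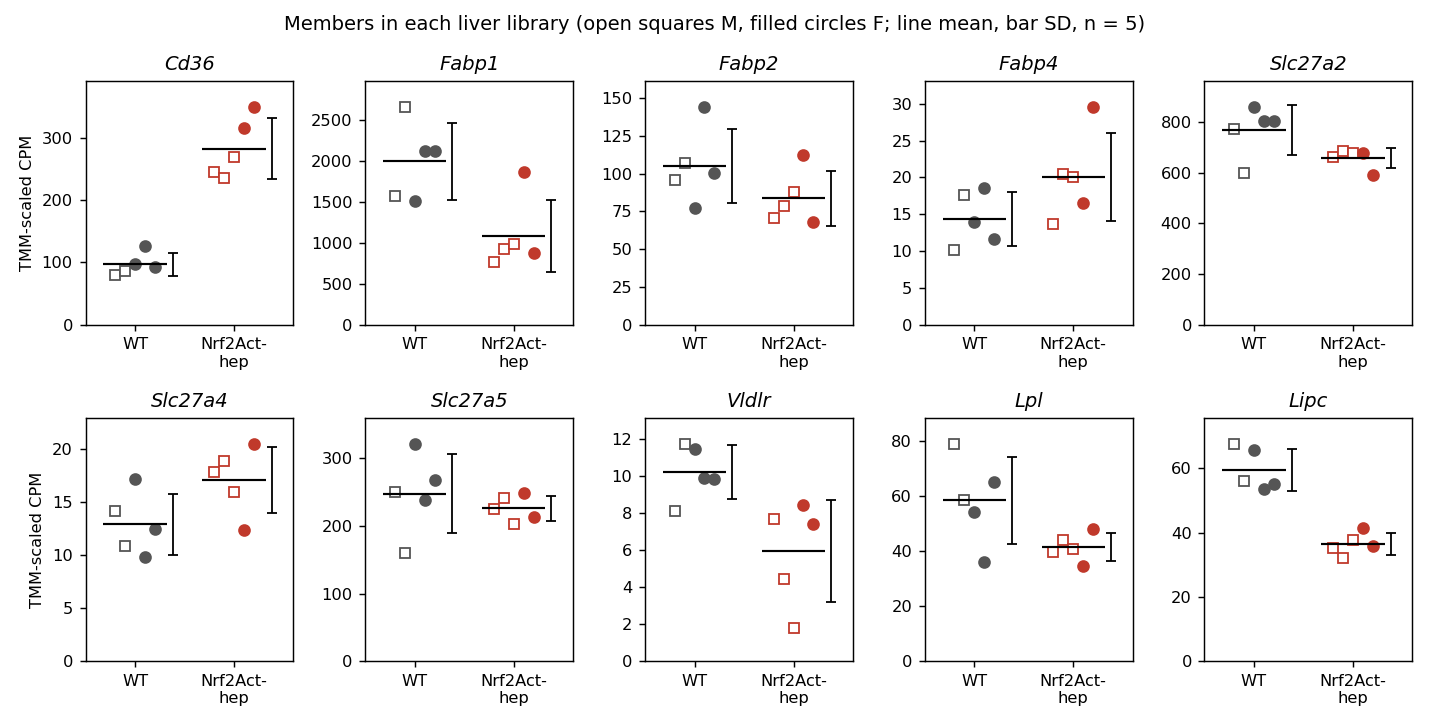
TMM-scaled CPM of each member in each library (1 panel per gene, vertical axes from 0), WT in grey and Nrf2Act-hep in red, M as open squares and F as filled circles. Lines are means and bars SD (n = 5 per genotype). Cd36 and Lipc are the 2 panels in which the genotypes do not overlap, and 1 Nrf2Act-hep library of Fabp1, at 1864 CPM, lies in the WT range.

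Among the uptake proteins, Cd36 (ENSMUSG00000002944, chromosome 5, 17781690 to 17888801) was measured in the WT libraries 1 to 5 at 79.1, 87.0, 97.4, 127 and 93.1 CPM. In the Nrf2Act-hep libraries 6 to 10 it stood at 245, 235, 269, 315 and 349 CPM. Every Nrf2Act-hep library was above every WT library, and the lowest of them was still well above the highest WT value. The log2 fold change was 1.61 ± 0.12 (limma, adjusted p = 2.3e-09), a 3.06-fold rise with a 95% interval of 2.58 to 3.63. It rested on 802 reads in WT and 3539 in Nrf2Act-hep.

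The FATP genes gave smaller differences. Slc27a2 (FATP2, ENSMUSG00000027359, chromosome 2, 126552407 to 126588243), an importer and very long-chain acyl-CoA synthetase of hepatocytes, was at 771, 598, 858, 804 and 802 CPM in WT and at 662, 686, 677, 678 and 590.3 CPM in Nrf2Act-hep. WT replicate 2 lay among the Nrf2Act-hep libraries, and the other 4 WT libraries were above all of them. The log2 fold change was -0.19 ± 0.12 (limma, adjusted p = 0.47, 95% interval -0.45 to 0.062). Slc27a5 (FATP5, ENSMUSG00000030382, chromosome 7, 12988346 to 12998192), which also activates bile acids, was at 159.8 to 321 CPM in WT and 202 to 248 CPM in Nrf2Act-hep. Its log2 fold change of -0.05 ± 0.14 had a 95% interval of -0.34 to 0.24 (limma, adjusted p = 0.91), and the Nrf2Act-hep libraries lay within the WT range. Slc27a4 (FATP4, ENSMUSG00000059316, chromosome 2, 29802634 to 29817522), known as the main FATP of intestine, was at 9.87 to 17.2 CPM in WT and 12.4 to 20.5 CPM in Nrf2Act-hep. The difference of 0.38 ± 0.20 did not pass (limma, adjusted p = 0.35), on 106 and 211 reads. The span of Slc27a2 overlaps that of Gm26697 on the opposite strand, which had 10 reads in all libraries together, and no other member overlapped a measured gene.

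Of the binding proteins, Fabp1 (ENSMUSG00000054422, chromosome 6, 71199827 to 71205023) stood at 1570.4, 2660.4, 1519, 2119 and 2120.2 CPM in WT replicates 1 to 5. In Nrf2Act-hep replicates 6 to 10 it stood at 772, 931, 989.7, 1864 and 872 CPM. Replicate 9 was within the WT range, and the other 4 Nrf2Act-hep libraries were below every WT library. The log2 fold change was -0.88 ± 0.23 (limma, adjusted p = 0.044), a ratio of 0.54 with a 95% interval of 0.39 to 0.76. The call did not hold with no filter (adjusted p = 0.28), a looser filter of 1 CPM in 5 libraries (0.056), the deposited scale (0.062), edgeR (0.058) or limma-voom (0.056), nor in the F libraries alone (0.52). Leaving out any 1 of WT replicates 1, 2, 4 and 5 and Nrf2Act-hep replicates 6, 7, 8 and 10 also ended it (adjusted p of 0.073 to 0.13), while without replicate 9 the log2 fold change was -1.17 (limma, adjusted p = 7.7e-05). All 23 alternatives kept the lower value in Nrf2Act-hep.

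Fabp2 (ENSMUSG00000023057, chromosome 3, 122895072 to 122899506) was at 96.0, 107, 77.1, 144 and 101 CPM in WT and at 70.7, 78.4, 87.9, 113 and 68.1 CPM in Nrf2Act-hep. The groups overlapped, and replicate 9 was the highest Nrf2Act-hep library here as it was for Fabp1. The log2 fold change was -0.30 ± 0.16 (limma, adjusted p = 0.37, 95% interval -0.64 to 0.036). Fabp4 (ENSMUSG00000062515, chromosome 3, 10204088 to 10208576) was at 10.1 to 18.6 CPM in WT and at 13.6 to 29.6 CPM in Nrf2Act-hep, with 116 and 248 reads. Its difference of 0.48 ± 0.21 did not pass (limma, adjusted p = 0.25, unadjusted p = 0.032), and Nrf2Act-hep replicate 10 was its highest library. Without that library the difference was 0.30 (adjusted p = 0.59), the lowest with 1 library left out, and without WT replicate 2 it was 0.65 (adjusted p = 0.12), the highest, by limma.

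Fabp4 and Fabp2 are markers of other tissues, so defining genes of those cells were read beside them. Among 8 adipocyte markers, Adipoq had 3 reads in all libraries together, and Cfd and Retn had 2 each. Cidec, which hepatocytes also express on lipid droplets, was the 1 adipocyte marker to pass the filter, and it rose from 15.6 ± 10.6 to 27.7 ± 6.81 CPM (limma, adjusted p = 0.040). The summed adipocyte list was 9.46 to 37.2 CPM in WT and 18.7 to 38.6 CPM in Nrf2Act-hep. The enterocyte list summed to at most 1.67 CPM in any library, on 2 genes in the table, and 0 of them passed the filter. Of 11 Kupffer cell and macrophage markers 0 were higher and 1 lower by limma, namely Timd4, a receptor of resident macrophages (10.9 ± 1.56 and 5.42 ± 2.66 CPM; adjusted p = 0.034). That list summed to 278 to 355 CPM in WT and 222 to 319.8 CPM in Nrf2Act-hep. Endothelial markers (0 of 9 called by limma) summed to 415 to 504 CPM and 426 to 509 CPM. Past the filter, limma called 0 of 8 stellate cell markers, 0 of 2 cholangiocyte markers and 0 of 1 lymphocyte marker by genotype. All 8 hepatocyte markers passed the filter and 0 were called, with a median log2 fold change of -0.12. That list summed to 36966 to 43881 CPM in WT and to 28965 to 36875 CPM in Nrf2Act-hep. Every Nrf2Act-hep sum was below every WT sum, and the sums were not tested. Most of these sums came from 1 gene, Alb, the albumin gene, so they say little of the other listed genes. Alb averaged 29502 CPM over WT and 21586 CPM over Nrf2Act-hep libraries and did not pass (limma, adjusted p = 0.080). In whole liver, fewer cells of a type and less RNA per cell cannot be told apart, and the part of these cells in the values of Fabp4 and Lpl was not tested.

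The lipases and the lipoprotein receptor were lower on average in Nrf2Act-hep, and 1 of the 3 passed. Lipc (ENSMUSG00000032207, chromosome 9, 70798128 to 70952226) was at 67.6, 56.1, 65.6, 53.4 and 55.2 CPM in WT and at 35.3, 32.2, 37.8, 41.4 and 35.7 CPM in Nrf2Act-hep. The 2 groups did not overlap, and each was narrow. The log2 fold change was -0.69 ± 0.13 (limma, adjusted p = 0.0019), a ratio of 0.62 with a 95% interval of 0.51 to 0.75. The call held in all alternatives except the F libraries alone, where the log2 fold change was -0.58 (limma, adjusted p = 0.23).

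Lpl (ENSMUSG00000015568, chromosome 8, 68880491 to 68907448), which adult hepatocytes express at a low level, was at 79.1, 58.6, 54.1, 36.0 and 65.0 CPM in WT and at 39.6, 44.2, 41.0, 34.6 and 48.0 CPM in Nrf2Act-hep. WT replicate 4 was low, among the Nrf2Act-hep libraries, and the other 4 WT libraries were above all of them. The log2 fold change of -0.50 ± 0.16 did not pass (limma, adjusted p = 0.095, 95% interval -0.83 to -0.16). It passed without WT replicate 4 (-0.62; limma, adjusted p = 0.013), without Nrf2Act-hep replicate 10 (-0.63; adjusted p = 0.039) and in the M libraries alone (-0.70; adjusted p = 0.048). Vldlr (ENSMUSG00000024924, chromosome 19, 27216484 to 27254231) was at 8.11, 11.7, 11.5, 9.87 and 9.80 CPM in WT and at 7.66, 4.42, 1.82, 8.41 and 7.39 CPM in Nrf2Act-hep. Only the lowest WT library and the highest Nrf2Act-hep library overlapped. The value of 1.82 CPM came from 4 reads, where 3 reads equal 1.38 CPM, and the log2 fold change of -0.72 ± 0.27 did not pass (limma, adjusted p = 0.17).

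**Figure D2:**
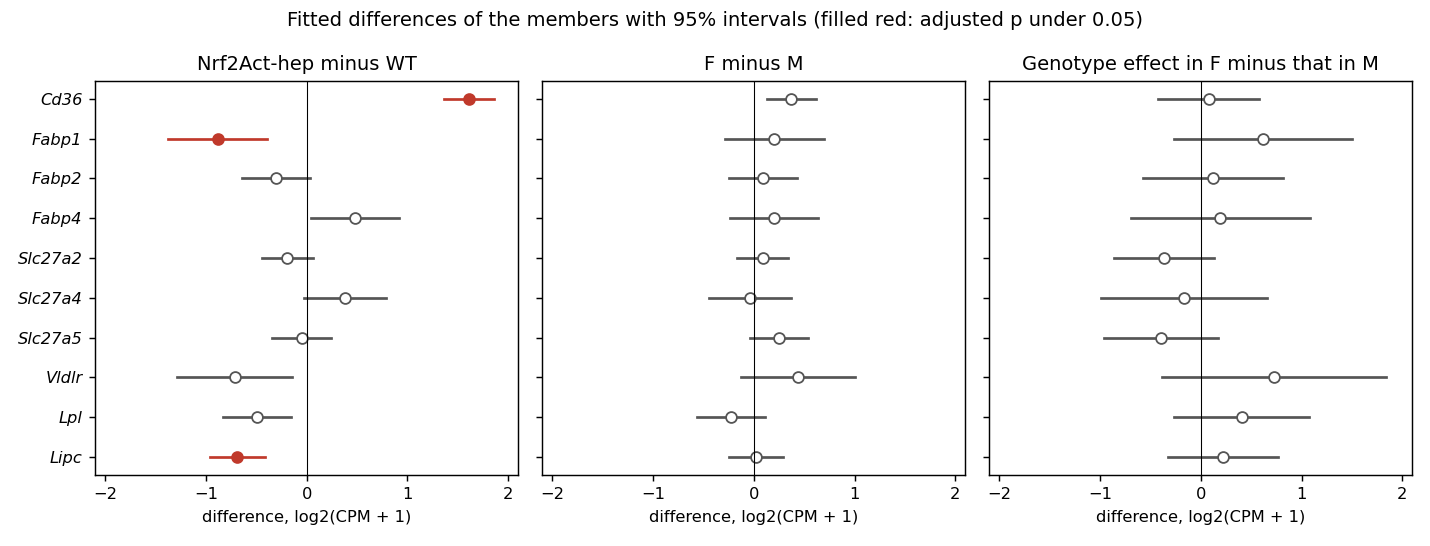
Fitted differences of the 10 members on the log2(CPM + 1) scale (points) with 95% intervals (lines), for genotype, for letter and for the interaction, with members past an adjusted p of 0.05 filled in red. The 3 filled points are Cd36, Fabp1 and Lipc in the genotype panel, and the letter and interaction panels have 0.

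The pool of transcripts from the 10 genes changed in make-up. Their sum was 2946 to 3768 CPM in WT and 2089 to 2343 CPM in 4 Nrf2Act-hep libraries, with replicate 9 at 3332 CPM. Fabp1 supplied 58.7 ± 7.87% of that sum in WT and 43.0 ± 7.52% in Nrf2Act-hep, and Cd36 2.88 ± 0.50% and 11.7 ± 2.38%. The ratio of Fabp1 to Cd36 was 15.6 to 30.6 in the WT libraries and 2.50 to 5.91 in the Nrf2Act-hep libraries. These shares and ratios are built from the values above and were not tested.

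**Figure D3:**
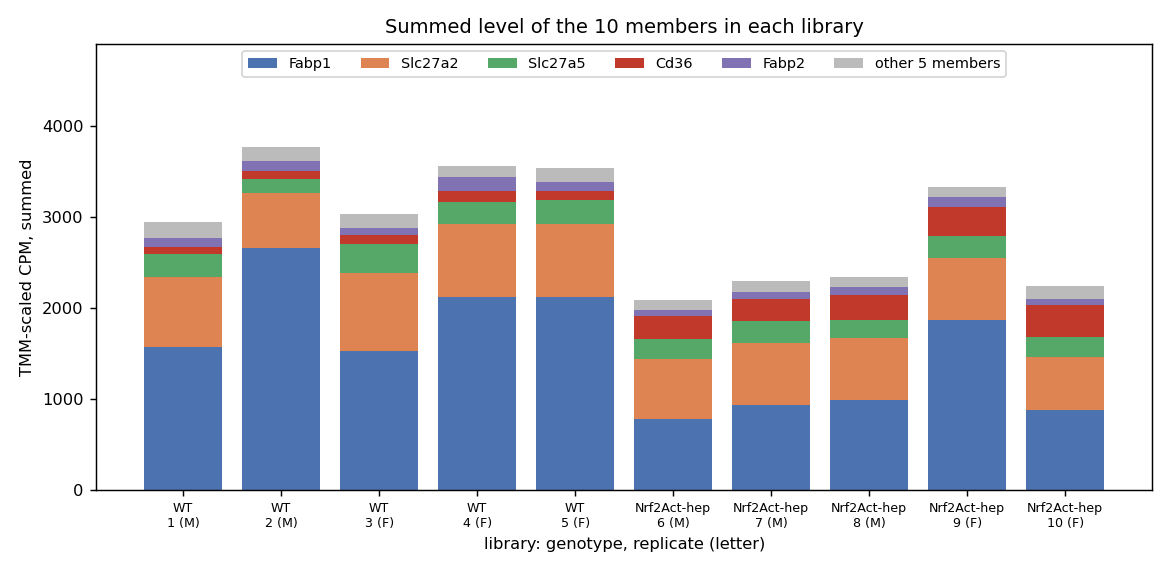
Summed TMM-scaled CPM of the 10 members in each library (vertical axis from 0), stacked by gene, with the letter of each library in brackets. The Fabp1 segment is the tallest in all 10 libraries, and the Cd36 segment is taller in each Nrf2Act-hep library (235 to 349 CPM) than in any WT library (79.1 to 127 CPM).

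Spread between libraries differed among the members. In Nrf2Act-hep the coefficient of variation of Fabp1 was 40.8%, where counting error alone at its depth gives 1.89%, and that of Slc27a2 was 5.95% against 2.47%. Lipc varied by 9.31%, no more than the 10.5% of counting error. Of the rarest members, Slc27a4 was near that limit, at 22.4% against 21.7% in WT and 18.1% against 15.4% in Nrf2Act-hep. Vldlr was below it in WT, at 14.3% against 24.5%. In Nrf2Act-hep Vldlr was above it, at 46.4% against 25.6%, the widest spread of the members. Counting error here treats reads as independent and covers no other source.

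The letter comparison asked whether the members differed between F and M libraries at equal genotype. By limma 0 of the 10 passed, where 1.16% of all genes did, and 1 of the 10 (Cd36) had an unadjusted p under 0.05, against 10.2% of all genes. Cd36 was 1.30-fold higher in F, a log2 difference of 0.37 ± 0.12 (limma, unadjusted p = 0.0047, adjusted p = 0.19). Within WT its F libraries (93.1 to 127 CPM) were above the M libraries (79.1 and 87.0 CPM), and within Nrf2Act-hep the F libraries (315 and 349 CPM) were above the M libraries (235 to 269 CPM). DESeq2 and edgeR also called 0 members. The other 9 had log2 differences of -0.23 (Lpl) to 0.44 (Vldlr), none with an unadjusted p under 0.05.

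The genotype difference was then compared between letters. Cd36 rose by 1.58 ± 0.17 on the log2 scale in M and by 1.65 ± 0.17 in F, and the interaction of 0.08 ± 0.24 had a 95% interval of -0.42 to 0.58. Lipc differed by -0.80 ± 0.18 in M and -0.58 ± 0.18 in F, and Fabp1 by -1.19 ± 0.29 and -0.57 ± 0.29. For Fabp1 the interaction was 0.62 ± 0.41 (95% interval -0.26 to 1.505). No member passed the interaction test (limma, lowest adjusted p = 0.81), and 0 of the 10 had an unadjusted p under 0.05. Of all genes 0.0248% passed and 7.13% had an unadjusted p under 0.05. With 2 or 3 libraries per genotype and letter the intervals are wide, so these tests do not show that the letters respond alike.

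**Figure D4:**
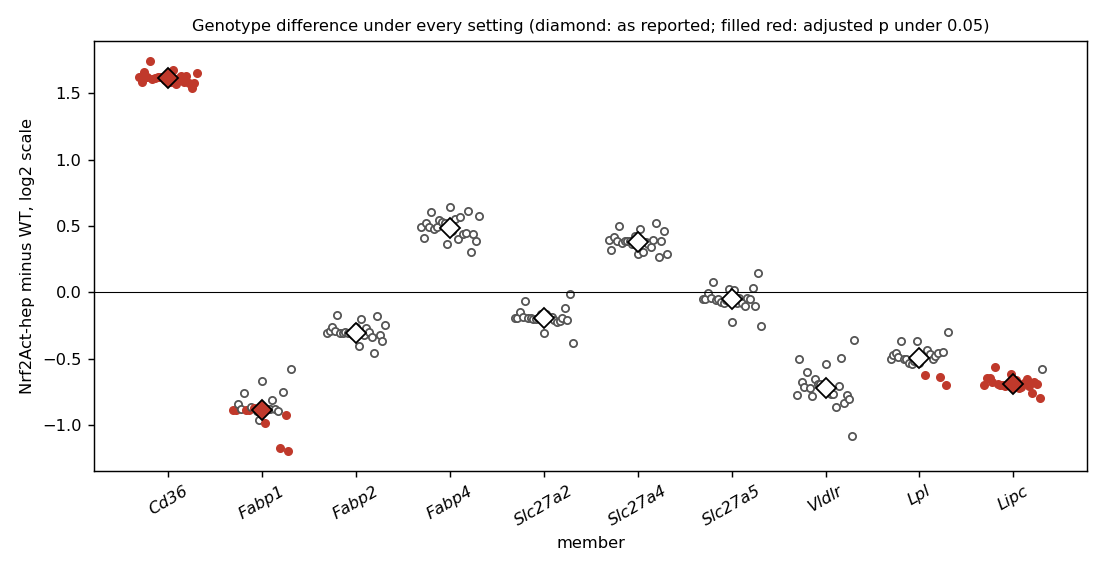
Nrf2Act-hep minus WT difference of each member on the log2 scale as reported (diamonds) and under each alternative setting (small points), filled in red where the adjusted p was under 0.05. Cd36 is filled throughout, Fabp1 is on both sides of the threshold, and Slc27a5 is the 1 member whose points lie on both sides of 0.

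Other genes of fatty acid handling were read from lists. In a list of fatty acid transport, activation and binding genes, 15 of 23 passed the filter, 1 was higher and 0 lower by limma, and the median log2 fold change was 0.01. Acsl4, an acyl-CoA synthetase with a preference for arachidonate, rose by 0.57 ± 0.14 on the log2 scale, from 39.1 ± 6.65 to 58.7 ± 6.996 CPM (limma, adjusted p = 0.020). The acyl-CoA-binding protein gene Dbi (1625 ± 286 and 1550.1 ± 251 CPM) and the main hepatic acyl-CoA synthetase gene Acsl1 (825 ± 97.9 and 906 ± 257 CPM), the 2 most abundant, did not pass. Slc27a1 had 58 reads in all libraries together, Fabp5 24, and Slc27a3 and Slc27a6 2 each, so these relatives of the members were too rare to test.

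Among lipases, their cofactors and lipoprotein receptors, 19 of 22 passed the filter, 0 were higher and 2 lower by limma, with a median of -0.02. Mgll, the monoacylglycerol lipase gene, averaged 399 ± 54.4 CPM in WT and fell to 275 ± 21.6 CPM, a difference of -0.49 ± 0.12 (limma, adjusted p = 0.012). Scarb1, the HDL receptor gene, fell from 48.2 ± 8.80 to 29.6 ± 8.13 CPM (-0.77 ± 0.17; limma, adjusted p = 0.0090). Inhibitors and anchors of LPL did not pass the genotype test. Angptl4, an inhibitor, was at 66.3 ± 28.4 and 52.3 ± 10.9 CPM, and Gpihbp1, which holds LPL on capillary endothelium, at 23.3 and 25.8 CPM.

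Of 19 lipid-sensing transcription factors 17 passed the filter, of which 0 were higher and 1 lower by limma (median -0.16). The lower gene was Mlxipl, which encodes the carbohydrate response factor ChREBP (24.9 ± 6.57 and 14.5 ± 0.59 CPM; log2 fold change -0.73 ± 0.18, adjusted p = 0.020). Ppara itself, at 129 and 148 CPM, differed by 0.18 on the log2 scale (limma, adjusted p = 0.54). Pparg, a known regulator of Cd36 and Fabp4, did not pass the filter, with 87 reads in all libraries together. Of 18 PPARA target genes 16 passed the filter, of which 1 was higher and 0 lower by limma, and the median was -0.07. That list did not hold Fabp1, which is counted among the members, or Angptl4, counted with the lipases and cofactors. Of 8 ATF4 target genes, a list read because ATF4 is a known activator of Vldlr, 2 passed the filter, Trib3 and Sesn2, and limma called 0 (log2 fold changes 0.63 and 0.51).

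**Figure D5:**
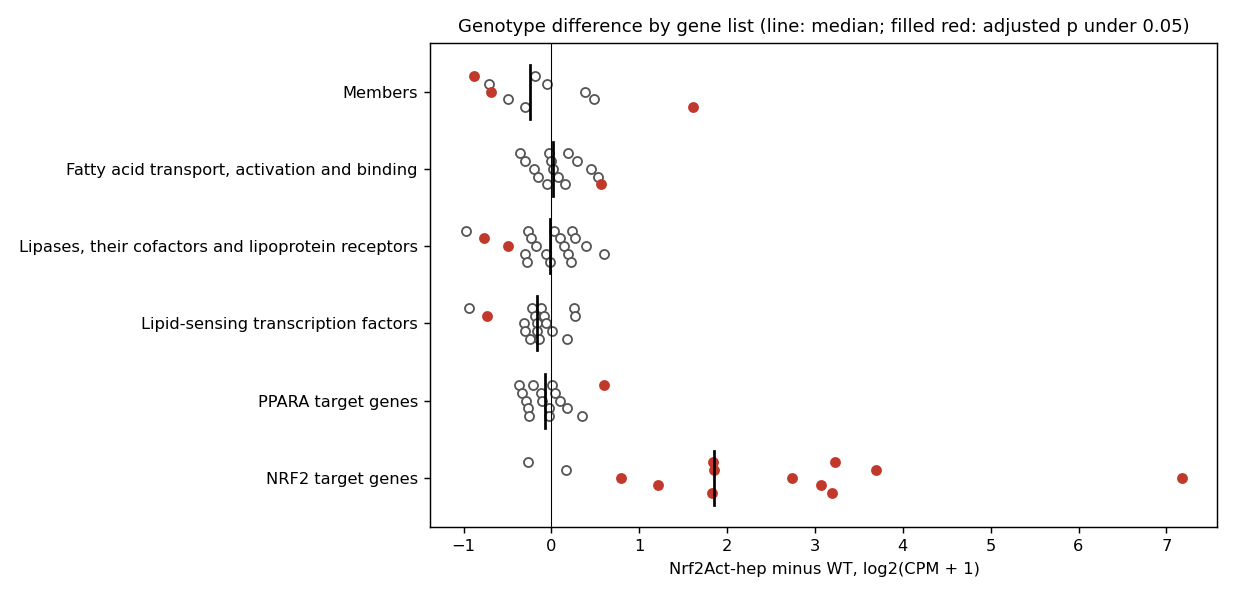
Nrf2Act-hep minus WT differences on the log2(CPM + 1) scale for the members and 5 gene lists (1 point per gene past the filter, line at the median, filled red at an adjusted p under 0.05). The NRF2 target genes lie to the right (median 1.85), while the other lists centre near 0 and the members span -0.88 to 1.61.

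Genes with the most similar profile to each called member were found from log2 values centred and divided by their SD over the 10 libraries, as the smallest mean absolute difference. For Cd36 they were Ibtk (0.15 SD units), the urate transporter gene Slc22a12 (0.20) and Ly6d (0.23). Slc22a12 averaged 0 CPM in WT, so its likeness rests on the step between genotypes and on the Nrf2Act-hep libraries. For Fabp1 they were Ndufb10, a subunit of respiratory complex I (0.19), the ribosomal protein gene Rps28 (0.27) and the bile salt pump gene Abcb11 (0.28). For Lipc they were the transferrin gene Trf (0.20), the fibronectin gene Fn1 (0.22) and Slc6a13 (0.23). These are likenesses over 10 libraries that differ by genotype, and were not tested.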

How the data were processed

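The authors deposited 1 table of CPM values per gene, 1 column per library. Per the submitters' processing notes the genome build was GRCm38. The sources used here do not give the aligner, the counter or whether strand was used. In each column 100% of values were whole multiples of the smallest value above 0 (within 0.01 read), so reads were recovered. Symbols and positions came from GENCODE models on GRCm38 (18799 of 18869 identifiers).

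Genes were kept at 10 reads at the median depth (4.50 CPM) in at least 5 libraries and 15 reads in all, leaving 8075. The test was limma 3.58.1 (R 4.3.3; variance trend, robust moderation) on log2(CPM + 1) of values scaled by TMM in edgeR 4.0.16, with genotype, letter or their interaction, adjusted by Benjamini-Hochberg over all genes at 0.05. The pseudocount of 1 understates changes of low genes. An exact permutation test was planned for members under the filter, of which there were 0. Calls by edgeR, DESeq2 1.42.0 and limma-voom on recovered reads, other scalings, filters and pseudocounts, and each library left out were alternatives. The fits were also run on simulated data with planted changes, and the outcome is not reported here. Members and lists were set by name, with no threshold on values, but chosen with earlier results of these data known. Named genes are the members, up to 6 called genes of a list or its 2 most abundant, label checks and 3 similar genes per called member; other genes named from the lists were chosen after their values were seen. Some listed genes are counted in their lists and not reported here by name.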

Additional observations from a re-analysis of the deposited data

Results flagged for a closer look

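Libraries were set against the others of their genotype for each member and for the sum of the members, 22 groups in all, of which chance flags about 1 in 20 at the 95% level. Fabp1 in Nrf2Act-hep replicate 9 was at 1864 CPM, with the next library at 989.7 CPM, a gap of 0.80 of the group's range. The sum of the 10 members was highest in the same library, at 3332 CPM against 2343 CPM in the next, and Fabp1 makes up most of it. Slc27a2 in Nrf2Act-hep replicate 10 was at 590.3 CPM, with the next library at 662 CPM, a gap of 0.76 of the range.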

How the results depend on the processing

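No paired analysis was possible because the genotypes share no replicate number. Over 23 alternatives for genotype, Cd36 passed each time with log2 fold changes of 1.54 to 1.74, and Lipc failed only in the F libraries alone. Fabp1 lost its call in 14 and Lpl gained one in 3; the cause was not tested. In the F libraries alone 1 member and 130 genes were called. Without 1 library the genotype calls ranged from 245 (without WT replicate 1; 248 without Nrf2Act-hep replicate 7) to 345, and on the deposited scale they split into 384 higher and 80 lower as against 225 and 150, the median of all genes moving to 0.13. Slc27a5 turned to 0.080 on that scale, to 0.15 in the M libraries alone and ranged from -0.22 to 0.035 without 1 library. For F minus M, 94 genes were called, 58 in the Nrf2Act-hep libraries alone and 57 (without WT replicate 2) to 147 (without Nrf2Act-hep replicate 9) with 1 library left out. Uncalled members changed sign there: without 1 library Fabp1 ranged from -0.078 to 0.42, Fabp2 from -0.057 to 0.22, Slc27a2 from -0.023 to 0.17, Slc27a4 from -0.15 to 0.11 and Lipc from -0.043 to 0.097; in the WT libraries alone Fabp1 was at -0.095, Slc27a4 at 0.057 and Lipc at -0.076, and in the Nrf2Act-hep libraries alone Slc27a2 at -0.094. The interaction calls were 2, with 18 under no filter, 15 by DESeq2 and 1 to 12 without 1 library; 0 members were called in any. Depth limits Vldlr, Slc27a4 and Fabp4 most (159, 317 and 364 reads in all).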

Other observations

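For F minus M, 1.16% of all genes passed by limma. In each list named here 1 or 2 genes passed, a larger share than over all genes but on small counts. Of the fatty acid transport, activation and binding genes past the filter 1 of 15 passed, namely Scp2, which encodes a sterol and fatty acyl carrier of peroxisomes and was lower in F by 0.64 on the log2 scale (adjusted p = 0.0031). Of the lipases, cofactors and lipoprotein receptors 2 of 19 passed, the carboxylesterase gene Ces3a, lower in F by 0.90 (limma, adjusted p = 0.0031), and Angptl4, a fasting-induced inhibitor of LPL, higher in F by 0.90 ± 0.14 (limma, adjusted p = 0.0010). The Angptl4 difference was 1.28 within WT (limma, adjusted p = 9.8e-05) and 0.51 within Nrf2Act-hep (adjusted p = 0.43), and the interaction of -0.76 ± 0.24 did not pass (unadjusted p = 0.0043, adjusted p = 0.44). Of the lipid-sensing transcription factors 1 of 17 passed, Ppargc1a, a coactivator of fasting genes (0.84 ± 0.19; limma, adjusted p = 0.020). Of the PPARA target genes 1 of 16 passed, Plin2, which coats lipid droplets (0.70 ± 0.16; limma, adjusted p = 0.036).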
